A study of Mus musculus with 6 samples.

Results

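The genes described here are 10 genes of the adipocyte, the cell that stores fat, measured in back skin of mouse embryos taken at E15.5. Of the 10, 9 were read by 16 probe sets that carry 1 gene symbol, among 18193 genes named on the array. A probe set is a group of short probes that together read 1 transcript. Cfd, a complement factor secreted by fat cells, was not analysed here. The list was chosen partly by measured values, namely the high values of Adipoq and Car3 in 1 control array, so the values of these genes are given as a description, with no test. All values are RMA expression values, read as log2, on which a step of 1 is a doubling of the signal.

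The series compared 3 samples of the genotype Fzd6 +/-, called control, with 3 of the genotype Fzd6 -/-, called knockout, all on a C57BL6/129 mixed background and each hybridised to an Affymetrix MOE430 2.0 array. Every embryo thus carried at least 1 mutant copy of Fzd6, a Frizzled receptor of planar cell polarity, and no wild-type skin was part of the comparison. The labels name no Cre line or transgene and call the samples biological replicates, and do not say whether each came from 1 embryo. P-values therefore measure only the spread between these samples. The labels' question is how skin without Fzd6 differs from skin with 1 copy.

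Adipocytes arise from mesenchymal precursors when the nuclear receptor Pparg and the transcription factor Cebpa switch each other on and then activate the genes of fat storage. The mature cell takes up fatty acids released by the lipase Lpl, carries them with the binding protein Fabp4, stores them in droplets coated by proteins such as Cidec, and secretes the hormones adiponectin (Adipoq) and leptin (Lep). Car3, a cytosolic carbonic anhydrase, is abundant in mature fat and in slow skeletal muscle, and Ucp1 is the heat-producing uncoupling protein of brown fat. In the mouse, dermal white fat fills with lipid late in gestation and after birth, and a sheet of skeletal muscle lies beneath the skin of the back.

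The RefSeq promoter table (GRCm38.p6) matched 7 of the 10 members by symbol, with 10 start sites. Car3, Fabp4 and Lpl were unmatched. The 250 bases before the start site are shown for the hormone gene Adipoq, whose values turned on 1 array, and for Lep and Ucp1, which serve in the same cell class and stayed low in every array. Sequences run 5′ to 3′ on the strand of the gene. Capitals mark matches, on either strand, to the TATA box letters TATAAA, to the CCAAT box, to the C/EBP-type letters TTGCNNAA and to the nuclear receptor half-site AGGTCA.

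Adipoq (chr16:23146286-23146535, + strand): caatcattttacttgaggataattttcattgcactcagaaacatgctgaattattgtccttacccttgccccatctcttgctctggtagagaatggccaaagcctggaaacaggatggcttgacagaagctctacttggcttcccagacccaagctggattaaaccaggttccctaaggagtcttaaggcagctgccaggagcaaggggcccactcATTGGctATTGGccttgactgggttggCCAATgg

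Lep (chr6:29059971-29060220, + strand): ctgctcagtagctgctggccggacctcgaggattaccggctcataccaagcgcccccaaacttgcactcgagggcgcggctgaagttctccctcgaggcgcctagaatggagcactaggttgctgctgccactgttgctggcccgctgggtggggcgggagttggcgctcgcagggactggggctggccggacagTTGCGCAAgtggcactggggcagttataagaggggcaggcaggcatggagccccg

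Ucp1 (chr8:83290098-83290347, + strand): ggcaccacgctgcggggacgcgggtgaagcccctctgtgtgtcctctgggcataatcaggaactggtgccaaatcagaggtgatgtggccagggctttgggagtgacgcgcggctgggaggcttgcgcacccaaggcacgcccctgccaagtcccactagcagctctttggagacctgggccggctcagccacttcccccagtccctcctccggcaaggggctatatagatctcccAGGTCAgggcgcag

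The Adipoq window held 3 CCAAT matches, at bases 34 to 30 and 27 to 23 before the start on the opposite strand and at bases 7 to 3 on the gene's own strand. Windows with 3 or more such matches made up 2.79% of 32851 windows in the table, and those with at least 1 made up 33.8%. The Lep window held 1 stretch, TTGCGCAA at bases 55 to 48, which reads alike on both strands and matches TTGCNNAA, as do 9.56% of windows. The Ucp1 window held AGGTCA at bases 14 to 9, a match found in 14.0% of windows. TATAAA, found in 12.4% of windows, was in none of these 3 windows, and no matches to different motifs overlapped. A match describes letters, not a bound site.

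Facts of the whole series were as follows. Array medians lay between 5.99 and 6.03, and the 3 arrays per group limit the precision of each difference. The labels give no batch or date. In 2 of the 3 Fzd6 probe sets the knockout arrays all lay below the controls (8.71 to 9.07 against 9.11 to 9.51 in the brightest), and in the third they overlapped. Whether these probes fall inside the deleted part is not known from the tables used here, and a probe outside it would check nothing. The arrays control 2 (3.47) and knockout 3 (3.52) had a low mean of Y-linked genes, which was 5.52 to 5.90 in the others. The sex-linked gene Xist read 13.27 in control 2 and 13.20 in knockout 3, and 5.42 to 6.14 in the others. Both groups thus held an array of this kind. Control 1 and knockout 1 were the lowest arrays for endothelial and dermal fibroblast genes. The mean of centred endothelial genes was −0.41 in control 1 and −0.91 in knockout 1, against 0.28 to 0.36 elsewhere. That of dermal fibroblast genes was −0.26 and −0.54, against 0.14 to 0.28. The fibroblast genes differed in control 1. Control 1 minus the median of the other 5 arrays was −1.59 for Col1a1, −0.049 for Dcn and 0.028 for Pdgfra. Markers of skin were present, with Krt14 of the basal epidermis between 12.22 and 13.36 and the collagen gene Col1a2 between 13.39 and 14.35. The liver gene Alb stayed between 4.74 and 4.95, but liver genes were not all level. Their centred mean was 0.19 in knockout 1 and 0.083 in control 1, against −0.12 to −0.035 elsewhere. Apoa1 and Afp were both highest in knockout 1, at 6.77 and 5.47 in their brightest probe sets. Another Afp probe set exceeded every other array by 2.45 in knockout 1, and a further one by 0.70.

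Adipoq encodes adiponectin, a hormone made almost only by fat cells. Its probe set (1422651_at) read 8.64 in control 1, 3.45 in control 2 and 3.32 in control 3. The knockout arrays 1 to 3 read 3.45, 3.43 and 3.48. A single array was thus high, and the other 5 lay within 0.16 of each other, with control and knockout intermixed. Control 1 stood 5.20 above the median of the other 5. These 5 were not shown to be above background, so no fold is given. Among all probe sets of an array, Adipoq stood at the 82.8th percentile in control 1 and between the 6.76th and the 8.73rd elsewhere. Group means were 5.14 ± 3.04 in control and 3.45 ± 0.028 in knockout (SD, n = 3), and the difference of −1.68 became 0.070 without control 1.

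Lep, the fat hormone that signals energy stores to the brain, did not share this step. It read 4.12 in control 1, 3.92 in control 2 and 3.73 in control 3, and 3.91, 3.90 and 3.70 in knockouts 1 to 3. Control 1 was again the highest, but by 0.19 over the next array, within the 0.22 that the other 5 spanned. Its percentile on the array was 19.1 in control 1 and 11.9 to 16.4 elsewhere, so the signal was low in all 6.

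**Figure D1:**
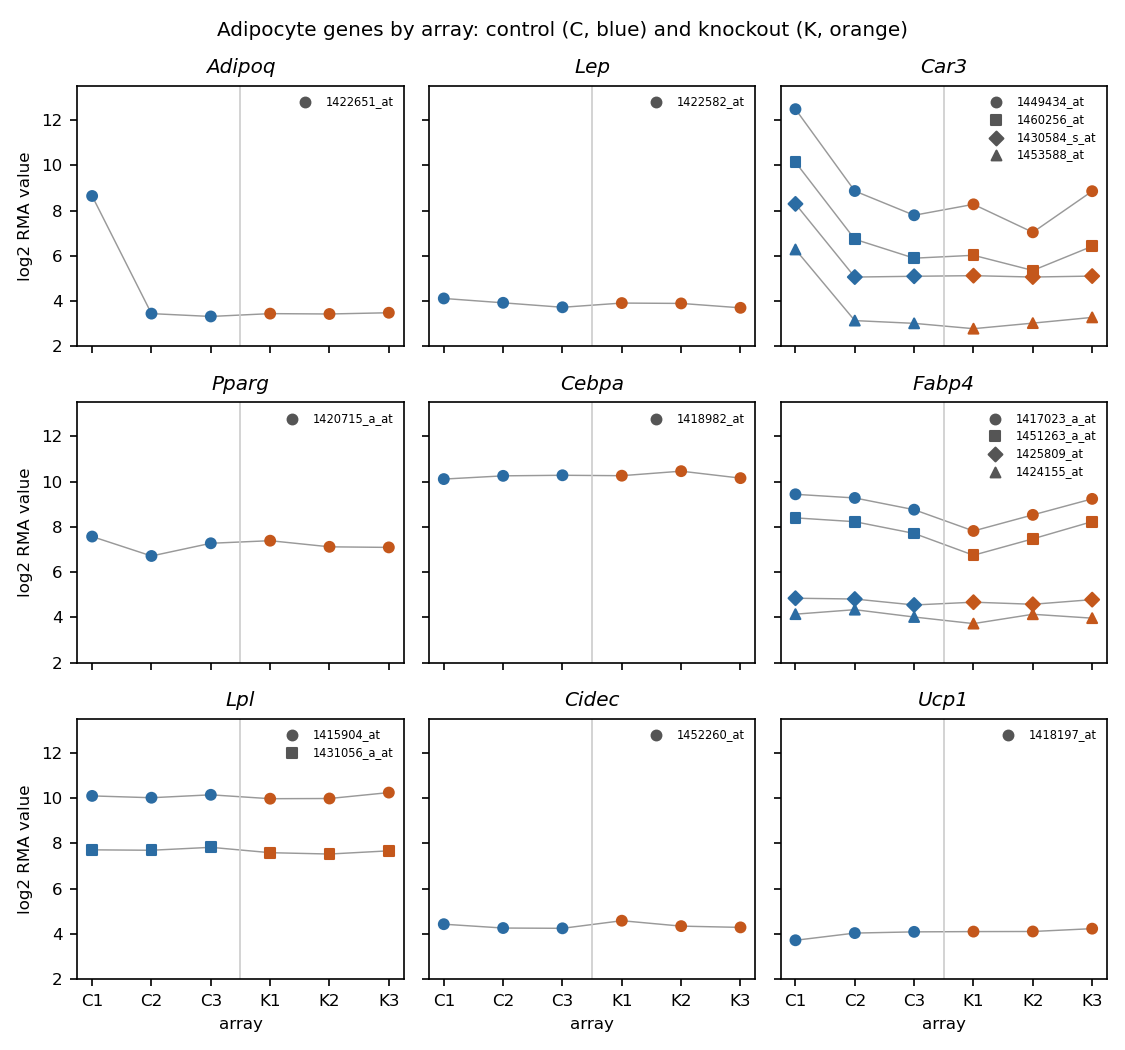
Log2 RMA values (vertical axis, 1 scale for all panels) of the 16 probe sets of 9 adipocyte genes in the 6 arrays (horizontal axis; C, control, blue; K, knockout, orange), with 1 marker shape per probe set; grey lines join the values of a probe set and imply no order of arrays. Adipoq and all 4 Car3 probe sets are highest in control 1, while the bright Fabp4 probe sets are lowest in knockout 1. The other genes vary less, Pparg the most of them, over 0.86.

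Car3 followed Adipoq, in all 4 of its probe sets. The brightest (1449434_at) read 12.48 in control 1, 8.86 in control 2 and 7.79 in control 3, and 8.27, 7.04 and 8.85 in knockouts 1 to 3. The next (1460256_at) read 10.13, 6.73 and 5.89 in the controls and 6.02, 5.35 and 6.42 in the knockouts. Control 1 was the highest array in each, far outside the range of the other 5. The excess over their median was 4.20 and 4.11, or 18.4-fold and 17.3-fold in signal. The other 5 were not shown to be above background here either. They lay at the 39.3rd to 60.3rd percentile for 1460256_at, so these folds describe signal only. The probe set 1430584_s_at read 8.29 in control 1 and between 5.06 and 5.12 in the rest. The dimmest (1453588_at) read 6.28 in control 1 and between 2.78 and 3.28 in the rest. Their excesses were 3.20 and 3.25. The suffix _s_at marks probes that can match more than 1 transcript. For the brightest, the knockout minus control difference was −1.65 with all arrays and −0.27 without control 1.

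Over the whole array, few probe sets showed such a step. In control 1, 7 of 45037 probe sets (0.0155%) exceeded every other array by over 1, and 5 of the 7 were those of Adipoq and Car3, which the choice of genes fixed. The others were 1 probe set of Irs4, an insulin receptor substrate, and 1 without a gene name, with excesses over the highest other array of 1.72 and 1.07. The other Irs4 probe set read 4.64 in control 1 and between 4.52 and 4.79 elsewhere, so it did not show the step. The same count was 92 in knockout 1, 1 in control 3 and 0 in control 2, knockout 2 and knockout 3. The excess of Adipoq in control 1, 5.16, was the largest of any probe set in any array, followed by a Krtap13 probe set in knockout 1, at 3.76. In the marker lists of other tissues, control 1 was the highest of the 6 arrays in 0 of 16 skeletal muscle, 0 of 10 endothelial, 0 of 8 fibroblast, 0 of 8 epidermal and 0 of 5 erythroid genes, beside 20.4% of all named genes. It was the highest in 1 of 6 cartilage, 1 of 4 glia and nerve, 1 of 5 liver and 4 of 10 macrophage genes.

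**Figure D2:**
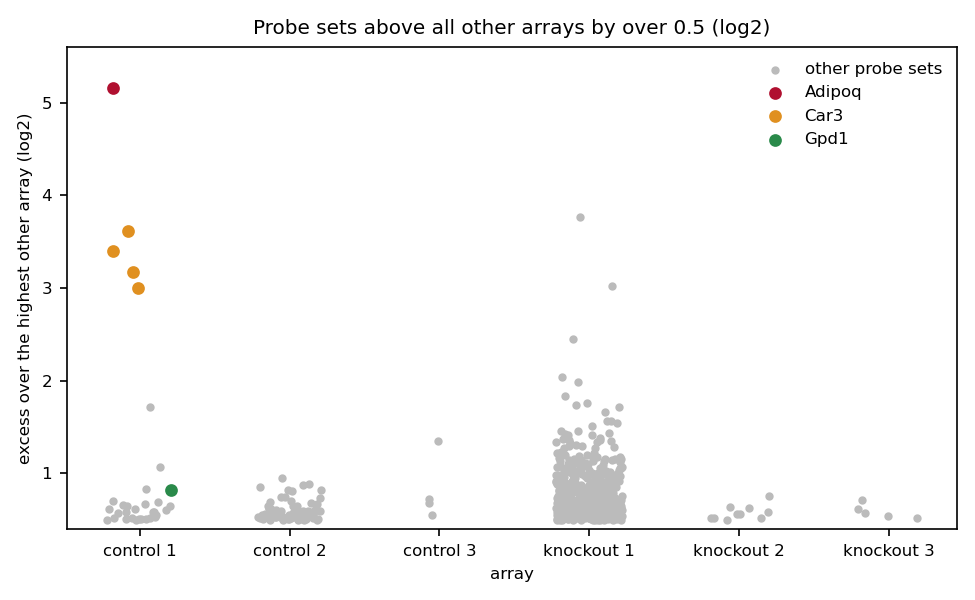
Each point is a probe set that exceeds all 5 other arrays by over 0.5 in the array named on the horizontal axis; the vertical axis gives the excess over the highest other array (log2), and points are spread sideways for clarity only. Adipoq (red), Car3 (orange) and Gpd1 (green) are marked. In control 1 the Adipoq point lies at 5.16 and the Car3 points between 3.00 and 3.62, apart from the rest of that array, while knockout 1 has 572 points, most of them below 2.

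With control 1 left aside, Adipoq was flat, but Car3 still varied between arrays, over a range of 1.82 in its brightest probe set. Control 2 and knockout 3 were high, at 8.86 and 8.85, and knockout 2 was low, at 7.04, so that the order did not follow genotype. The next brightest probe set gave the same order of the 5 arrays, while the 2 dimmer ones, which spanned 0.062 and 0.50, gave other orders. Skeletal muscle genes had the order of the bright probe sets in their mean over 16 genes: 0.42 in control 2, 0.34 in knockout 3, 0.10 in knockout 1, −0.075 in control 3 and −0.58 in knockout 2. Taken singly, 3 of the 16 (Myh8, Myl2 and Tnni1) had that whole order and 13 did not, beside 0.330% of all named genes that had it. Of the 16, 14 were lowest in knockout 2 among these 5 arrays, beside 13.8% of all named genes. Tnni1, 1 of the 3 and the troponin I of slow muscle fibres, read 12.01, 11.84, 11.72, 11.36 and 10.87. In control 1 the muscle mean was −0.21 and Tnni1 read 11.47, so the array with the highest Car3 was among the lower ones for the muscle mean. Myl2, also 1 of the 3, went the other way. It read 7.43 in control 1, below only control 2 (7.70) and 0.47 above the median of the other 5 arrays. The 2 arrays with low Y-linked genes, control 2 and knockout 3, were also those highest for muscle and, beside control 1, for Car3. The part of muscle in the variation of Car3 was not tested. In RNA of whole skin, fewer cells of a type and less RNA per cell cannot be told apart.

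**Figure D3:**
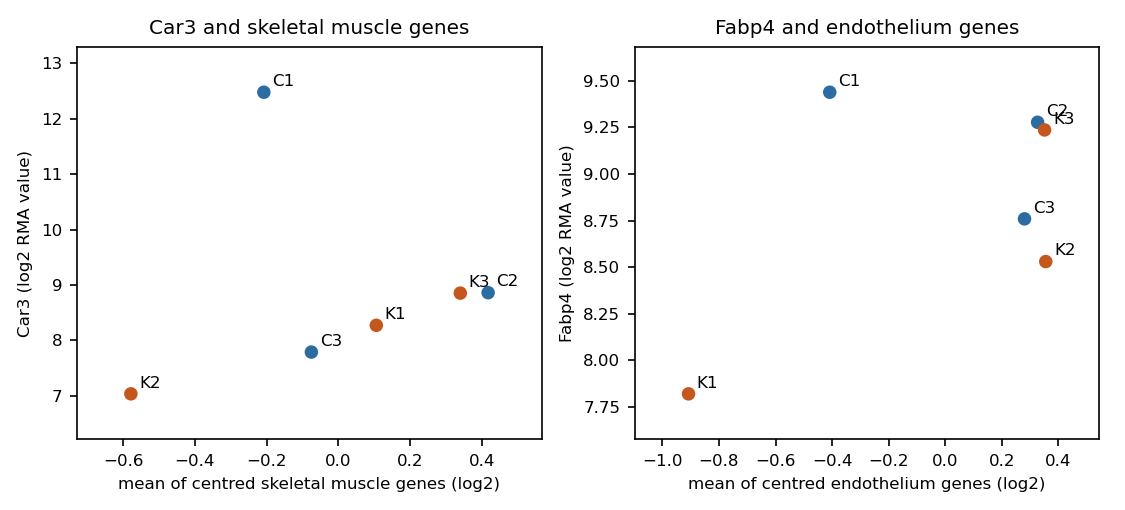
Left, Car3 (brightest probe set, log2 RMA value, vertical) against the mean of 16 centred skeletal muscle genes (log2, horizontal); right, Fabp4 (brightest probe set) against the mean of 10 centred endothelial genes, for the 6 arrays (C, control, blue; K, knockout, orange). Vertical axes do not start at 0. For Car3, 5 arrays rise together from K2 (7.04) to C2 (8.86) and C1 lies above them at 12.48; for Fabp4, K1 is lowest on both axes and C1 is highest for Fabp4 but low for the endothelial genes.

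The regulators of fat cell formation showed no such step. Pparg, the nuclear receptor that directs adipocyte differentiation, read 7.57, 6.71 and 7.28 in controls 1 to 3 and 7.39, 7.12 and 7.09 in knockouts 1 to 3. Control 1 was highest and control 2 lowest, both of the same genotype, and the groups overlapped. Means were 7.19 ± 0.44 and 7.20 ± 0.16 (SD, n = 3). The step of control 1 over the next array was 0.18, against a range of 0.68 among the other 5.

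Cebpa, the partner of Pparg in the mature fat cell and also a gene of differentiating epidermis, lay high on every array, at or above the 93.0th percentile. It read 10.11, 10.25 and 10.28 in the controls and 10.26, 10.46 and 10.15 in the knockouts. Here control 1 was the lowest array, by little, and all 6 lay within 0.35. The skin itself thus gave a bright Cebpa signal whether or not Adipoq was high.

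Of the genes of lipid handling, Fabp4, the fatty acid carrier of fat cells that endothelial cells and macrophages also make, varied most. Its brightest probe set (1417023_a_at) read 9.44, 9.28 and 8.76 in the controls and 7.82, 8.53 and 9.24 in the knockouts. A second (1451263_a_at) read 8.40, 8.23 and 7.71 and then 6.75, 7.47 and 8.23. Both were highest in control 1 and lowest in knockout 1, and the groups overlapped through knockout 3. Control 1 exceeded the next array by only 0.16 and 0.17. The remaining Fabp4 probe sets were dim, between 4.55 and 4.85 and between 3.73 and 4.34. Endothelial genes were also lowest in knockout 1, in 10 of 10 genes beside 23.9% of all named genes, and Cdh5, the cadherin of endothelial junctions, read 6.38 there. The endothelial mean was low in control 1 as well, where Cdh5, the gene furthest below, read 7.02 against 8.08 to 8.30 in the other 4 arrays. Tek did not share this, at 7.55 in control 1 and 7.45 to 7.59 in those 4. Macrophage genes averaged 0.19 in control 1 and −0.097 in knockout 1. The part of these cells in the Fabp4 values was not tested.

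Lpl, the lipase that frees fatty acids from lipoproteins at the vessel wall, was bright and even. It read 10.09, 10.01 and 10.14 in the controls and 9.97, 9.98 and 10.24 in the knockouts, with control 1 in the middle. Its dimmer probe set (1431056_a_at) read 7.71, 7.69 and 7.82 in the controls and 7.58, 7.52 and 7.66 in the knockouts. There all 3 knockouts lay below all 3 controls, with 0.025 between the nearest pair. Cidec, which enlarges lipid droplets in white fat, was low throughout: 4.42, 4.25 and 4.24 in the controls and 4.58, 4.34 and 4.28 in the knockouts, at the 21.2nd to 26.6th percentile. Knockout 1, not control 1, was its highest array.

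Ucp1, the marker protein of brown fat, was also low throughout and lowest in control 1. It read 3.71, 4.03 and 4.09 in the controls and 4.10, 4.10 and 4.23 in the knockouts, at the 12.5th to 20.3rd percentile. The knockouts all lay above the controls, by a gap of 0.012 at the nearest. The label of adipocyte genes thus fitted the arrays only in part: defining products of the mature cell, Lep, Cidec and Ucp1, were low in all 6 arrays, and the step of Adipoq and Car3 in control 1 came without one in Lep, Cidec, Ucp1, Lpl or Cebpa.

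Members were chosen with earlier results of these data known. The genotype comparison was tested for the 7 measured members other than Adipoq and Car3, in 11 probe sets. None passed (limma, adjusted p from 0.909 to 0.997 over all 45037 probe sets), 0 had an unadjusted p under 0.05, and the smallest unadjusted p was 0.106. Over all probe sets the same fit called 0.00% after adjustment and 5.21% at an unadjusted p under 0.05. With the replicate number as a block, limma called 3 of all probe sets (0.00666%) and 0 of these 11. Of the 11 values 7 were lower and 4 higher in the knockout, with a median difference of −0.057, beside 0.0018 over all probe sets. Fabp4 had the largest difference, from 9.16 ± 0.36 to 8.53 ± 0.71 (−0.63, 95% confidence interval −1.43 to 0.17, limma adjusted p = 0.909), and it was −0.28 without knockout 1. Its second probe set gave −0.63 (−1.46 to 0.20). Intervals were narrower for Pparg (0.013, −0.48 to 0.50), Cebpa (0.077, −0.17 to 0.32), Cidec (0.093, −0.15 to 0.34), Lep (−0.085, −0.36 to 0.19) and the brightest Lpl probe set (−0.020, −0.25 to 0.21). Differences within these intervals could not be told from 0 with 3 arrays per group.

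Groups failed to overlap in 2 of the 11 probe sets, beside 11.6% of all probe sets, in either direction. Ucp1 was higher in the knockout, at 4.14 ± 0.074 against 3.94 ± 0.20 (0.20, −0.070 to 0.47, limma adjusted p = 0.912). The dimmer Lpl probe set was lower, at 7.59 ± 0.071 against 7.74 ± 0.070 (−0.15, −0.34 to 0.042, limma adjusted p = 0.909). In Ucp1 the difference was 0.083 without control 1.

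**Figure D4:**
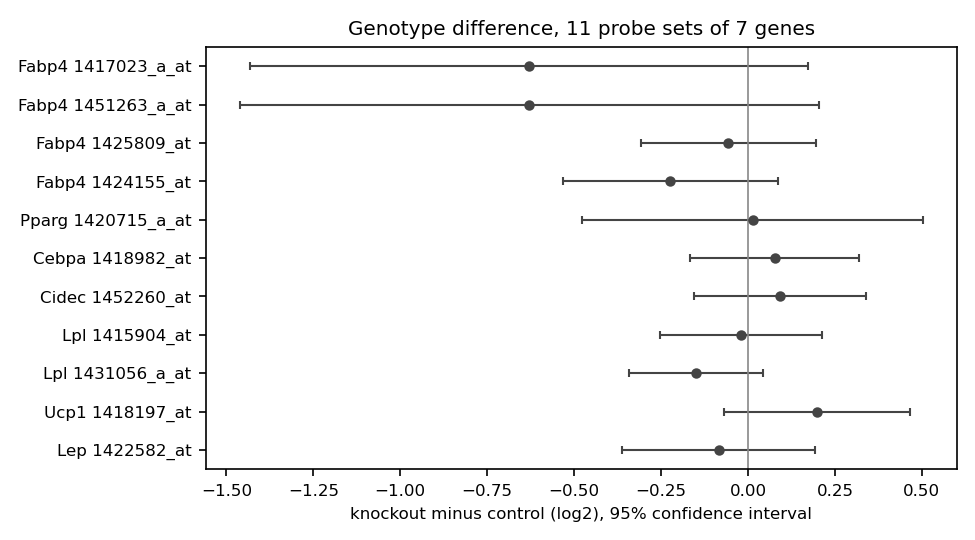
Knockout minus control difference (log2, horizontal) with its 95% confidence interval from limma for the 11 probe sets of the 7 genes tested (3 arrays per group); the vertical grey line marks no difference. All 11 intervals include 0, and those of the 2 bright Fabp4 probe sets, near −0.63, are the widest.

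Other genes of the adipocyte were read from a list of 65, of which 62 were measured by 1 probe set each. None passed between genotypes (limma, 0 of 62). An unadjusted limma p under 0.05 was found in 2 of the 62, beside 923 of all 18193 named genes. In the knockout 34 were higher and 28 lower, with a median difference of 0.0069, beside 0.0070 over all named genes. The 2 genes under 0.05 were Ebf2 and Bscl2. Ebf2, a transcription factor of brown fat precursors, read 6.49, 6.26 and 6.01 in the controls and 5.13, 5.58 and 6.01 in the knockouts (−0.68, −1.20 to −0.16, limma adjusted p = 0.909). Ebf2 was lowest in knockout 1, as were 7 of 8 fibroblast genes, beside 23.9% of all named genes. It was highest in control 1, where the fibroblast mean was low, at −0.26. The part of fibroblasts in the Ebf2 values was not tested. Bscl2, the seipin of lipid droplet formation, read 10.94, 10.66 and 10.85 in the controls and 11.46, 11.20 and 10.92 in the knockouts (0.37, 0.033 to 0.71, limma adjusted p = 0.909). It was highest in knockout 1, and the groups overlapped through knockout 3.

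By function, the regulators had 7 higher and 7 lower of 14, with Cebpb, an early inducer of differentiation, at 0.28 and the coactivator Ppargc1a at 0.22. Lipid droplet and triglyceride genes had 10 higher of 17, among them the lipase Pnpla2 at 0.19, and the glycerol channel Aqp7 was at −0.18. These 2 genes and Pck1, the carboxykinase of glyceroneogenesis, were the 3 of the 62 whose genotypes did not overlap, 2 higher and 1 lower in the knockout. Of all 18193 named genes, 1272 were higher and 785 lower without overlap. Pck1 was named after its value was seen. Fatty acid genes had 5 higher of 12, with the malic enzyme Me1 at 0.36, the fatty acid transporter Cd36 at −0.20 and Gpihbp1, which anchors Lpl to capillaries, at −0.24. Among hormones and receptors 7 of 11 were higher, with the leptin receptor Lepr at 0.21, the adiponectin receptor Adipor2 at 0.054 and resistin (Retn) at −0.051. Of the brown fat genes 5 of 8 were higher, with Pank1 at 0.21, the oxidase subunit Cox8b at 0.25 and the transcription factor Lhx8 at −0.30. None of these had an adjusted p below 0.909 in limma.

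The same 62 genes were read for control 1 alone. It exceeded the median of the other 5 arrays in 33 and was below it in 29, with a median of 0.016, beside 0.0036 over all named genes. It was the highest of the 6 arrays in 17 (27.4%), beside 20.4% of all named genes. The largest excess belonged to Gpd1, the glycerol-3-phosphate dehydrogenase that feeds triglyceride synthesis. Gpd1 read 6.82 in control 1, 5.97 in control 2 and 5.93 in control 3, and 5.97, 5.96 and 6.0 in knockouts 1 to 3. Like Adipoq, it was level in 5 arrays, within 0.065, and higher in control 1 alone, by 0.82 over the next. That held for its brightest probe set only. Of its 3 dimmer probe sets, 1 read 5.93 in control 1 and between 5.55 and 5.84 elsewhere, and control 1 was not the highest array in the other 2. Lhx8 (0.67) and G0s2, an inhibitor of lipolysis (0.52), followed, but their other arrays spanned 0.72 and 0.55. At the other end, Gata2, a restraint on adipocyte differentiation, read 7.90 in control 1, which was 1.44 below the median of the others. It read as low in knockout 1, at 7.92, and between 8.53 and 9.51 in the rest. Gata2 was named after its values were seen.

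By group, control 1 was highest in 7 of 17 lipid droplet and triglyceride genes, 4 of 8 brown fat genes, 3 of 14 regulators, 2 of 11 hormones and receptors and 1 of 12 fatty acid genes. Most of these steps were small. Retn, a hormone of mouse fat, read 6.38 in control 1 and between 6.12 and 6.21 in the rest. The droplet coat gene Plin4 read 5.44 against 5.26 to 5.37, and Lipe, the hormone-sensitive lipase, 5.52 against 5.26 to 5.44. Elovl3, a fatty acid elongase of brown fat, read 4.44 against 4.22 to 4.28. The last 3 of these genes were chosen after their values were seen.

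**Figure D5:**
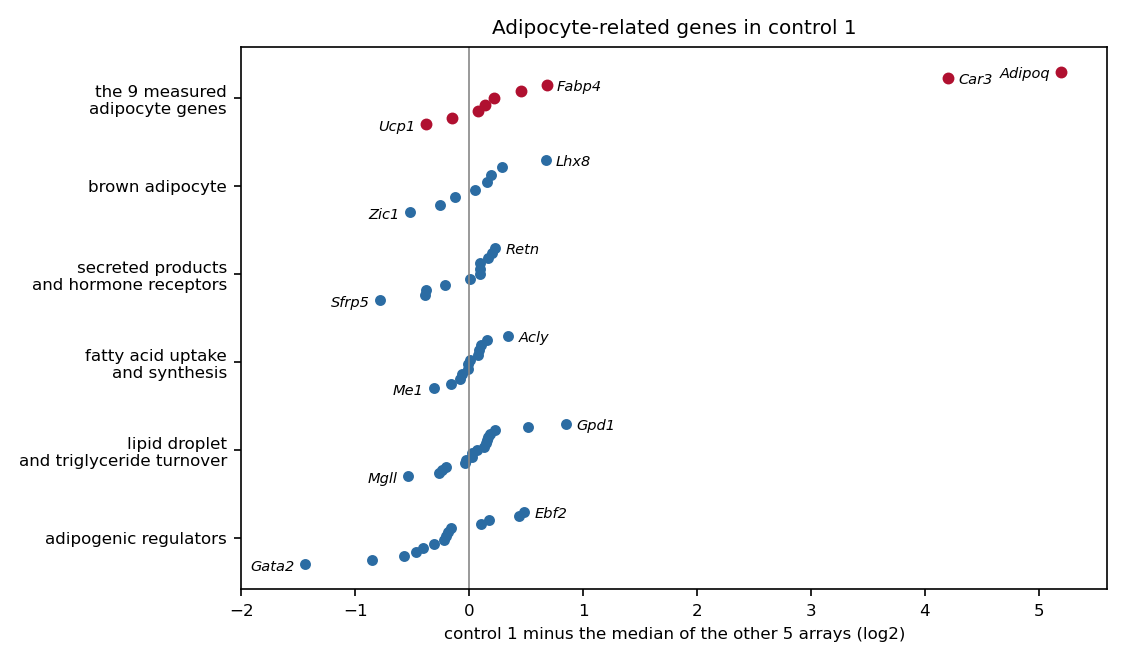
Control 1 minus the median of the other 5 arrays (log2, horizontal) for 62 adipocyte-related genes in 5 groups (blue) and the 9 measured adipocyte genes (red, brightest probe set); each point is a gene, the vertical offset only separates points, and the extremes of each group are named. Adipoq (5.20) and Car3 (4.20) lie apart, Fabp4 (0.68) is the next member, Gpd1 (0.85) is the highest of the blue points, and the rest scatter on both sides of 0.

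The genes with a pattern most like that of Adipoq over the 6 arrays were ranked by the root mean square distance between centred log2 values, 1 probe set per gene. Car3 lay at 0.69, a closeness that the choice of these genes for control 1 fixed. A gene with no variation would lie at 1.94. The nearest genes outside the list were St8sia6 (1.57), a sialyltransferase, the chemokine Ccl12 (1.58), 3830417A13Rik (1.62), Gpd1 (1.63), Ifi27l2a (1.63), the ligand Wnt2 (1.64), Cemip (1.66), Kcnk1, a potassium channel (1.67), Kcne4, a potassium channel subunit (1.67), and Rhox6 (1.68). All 10 were highest in control 1, by 0.32 to 0.82 over the next array, but a ranking by closeness to Adipoq selects for this direction. Their steps were smaller than that of Adipoq. Of these 10, Gpd1 and Kcne4 were the most level elsewhere: Kcne4 read 8.68 in control 1 and between 7.92 and 7.98 in the other 5, while St8sia6 and Ccl12 spread over 0.61 in theirs. The other members ranked, among 18193 genes, from Fabp4 at 62nd (1.75), Pparg at 221st (1.79) and Lep at 1103rd (1.84) to Ucp1 at 17025th (2.09).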

How the data were processed

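RNA was extracted with Trizol and RNeasy and labelled with biotin, per the labels' protocols. The deposited values were made by RMA, per the submitters' processing notes, which give no version. The log base is not written, and the deposited values, from 2.39 to 14.8, were read as log2 from that range. RMA gives the arrays nearly 1 distribution and compresses large differences of dim probe sets. Scanner files were not used here, so no detection calls were made.

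Of 45101 rows, 64 array controls were left out, and no filter on low values was set. Of 45037 probe sets 34945 had 1 symbol, 932 several and 9160 none. Symbols came from the platform annotation, updated through Entrez identifiers (34741 matched, GRCm38.p6). The genotype difference came from limma 3.58.1 under R 4.3.3 (lmFit, eBayes, two-sided, no covariate, Benjamini-Hochberg over all probe sets, threshold 0.05), tested on simulated data first. Lists and percentiles were computed in Python 3.11.15, and figures drawn with matplotlib 3.10.9. A gene's value is its probe set with the highest mean. Named genes are all members, the 3 genes of each related group with the smallest p, the 3 with the largest excess in control 1, the 10 nearest to Adipoq, and marker genes. Members and lists were chosen with earlier results of these data known.

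Arrays with 1 replicate number in common deviated together from their group means (correlations of 0.568, 0.359 and 0.124, each over 0.1), and were treated as pairs in the replicate block. Control 2 with knockout 3 had 0.422, above the 0.359 of the pair numbered 2. The remaining pairs of unlike number lay between −0.538 and 0.0169. The labels do not give this pairing, and the data bear it out only in part. Alternatives were a variance trend, only probe sets above the median, a further quantile normalisation, centring, array weights, the replicate block, a Y-linked covariate, the most variable probe set of a gene, and each array left out.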

Additional observations from a re-analysis of the deposited data

How the results depend on the processing

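The count of 0 called probe sets among the 11 tested members, and of 0 called among the related genes, held under all alternatives run (6 of the 11 and 47 of the 62 remain when only probe sets above the median are tested), with a smallest adjusted p among the members of 0.401, in limma with the replicate block. Pairing by the replicate block changed no call among these genes. It called 3 of 45037 probe sets (0.00666%) against 0, and it put 9 related genes and 1 member probe set at an unadjusted p under 0.05, against 2 and 0. Without knockout 3, both bright Fabp4 probe sets had an unadjusted p under 0.05 and an adjusted p of 0.995 in limma. The share of all probe sets with an unadjusted p under 0.05 was not counted in either fit. These counts therefore have no background beside them and are not read as a result about the genes.

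Small differences that passed no test turned in sign. With array weights Pparg was at −0.020 and Lpl at 0.018. Leaving out 1 array each put Pparg between −0.22 and 0.21, Lpl between −0.11 and 0.027, Cebpa between −0.0075 and 0.15 and Lep between −0.18 and 0.012. For Adipoq that range was −2.59 to 0.070 and for Car3 −2.61 to −0.27, with the values nearest 0 without control 1. With array weights they were −0.91 and −0.90. The Fabp4 difference ranged from −0.98 (without knockout 3) to −0.28 (without knockout 1), and it was −0.24 with array weights. Without scanner files, signal over background cannot be given, so low values such as those of Lep, Cidec and Ucp1 show no more than that the signal was dim.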
